A study of Homo sapiens with 6 samples.

Results

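The genes described here are 10 genes known as surface markers of pluripotent stem cells, or as enzymes that build the glycans such markers carry: PODXL, CD24, THY1, CD9, PROM1, ALPL, ST3GAL2, FUT4, CD200 and CNMD. They were chosen by name, as the rows whose Ensembl identifier maps to one of these symbols in GENCODE 44, and all 10 were found among the 19977 genes of each count file. Each passed the filter of at least 10 counts over the 6 libraries. Transcripts were sequenced from NCRM-1, a human induced pluripotent stem cell line of wild type genotype that was reprogrammed episomally from cord blood CD34+ cells. The cells were seeded as single cells in vertical wheel bioreactors and grown as aggregates for 4 days, with 50% of the medium exchanged on day 2. A set of 3 libraries came from E8, a defined medium, to which polyethylene glycol (10 mg/ml) and heparin sodium salt (0.1 µg/ml) were added, a medium named PEG and HS. The other 3 libraries came from E8 alone (E8 control). All samples share the line, the E8 base and the vessel type.

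Several limits bear on the groups. The protocol text of the labels describes PEG and heparin for all 6 libraries, so groups were taken from the treatment label instead. The labels name a single control bioreactor and a single treated bioreactor, so vessel and medium cannot be told apart. The p-values then measure only the spread between these samples, which may be technical. These are bulk libraries of 1 line, so fewer cells of a type and less RNA per cell cannot be told apart. Totals ran from 26991279 to 36185138 counts per library. Pluripotency transcripts were abundant in both media, with POU5F1 at means of 1922 CPM (PEG and HS) and 1635 CPM (E8 control) and DNMT3B at 2239 and 2216 CPM, whereas PTPRC of blood cells, SOX17 of endoderm and CDX2 of trophectoderm were each below 0.1 CPM on average. Over all markers listed for these types the sums were higher. Blood and endothelium markers had 4.35 to 5.19 CPM with PEG and HS and 6.67 to 7.39 CPM in E8 control. Endoderm markers had 3.19 to 3.97 and 4.10 to 5.12 CPM, and trophectoderm and amnion markers 16.0 to 17.4 and 32.3 to 34.2 CPM. CPM here means counts scaled by the TMM-normalised library size.

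Surface markers are used to recognise and sort pluripotent cells, and they are of several kinds. Some are proteins of the membrane, some are proteins held by a glycosylphosphatidylinositol (GPI) anchor, and others are sugars on lipids or on proteins. Podocalyxin, the product of PODXL, is a heavily glycosylated sialomucin that carries the TRA-1-60 and TRA-1-81 epitopes in pluripotent cells. The antigen SSEA-4 is a sialylated globo-series lipid, and SSEA-1 is a fucosylated sugar best known as a marker of mouse pluripotent cells.

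Of the 10 surface marker genes, 8 differed between the media at an adjusted p under 0.05 (edgeR quasi-likelihood test, Benjamini-Hochberg over 16505 genes), against 25.3% of all genes tested. THY1, CD9, FUT4 and CD200 rose in PEG and HS, 4 of 10 genes where 12.2% of all genes rose. PODXL, CD24, ALPL and CNMD fell, 4 of 10 where 13.1% of all genes fell. PROM1 and ST3GAL2 did not pass the test. Among the 10069 genes with at least 10 CPM on average, 32.4% passed in either direction. For 9 of the 10 genes no library of one medium reached the range of the other, against 39.3% of all genes tested. The median absolute log2 fold change was 0.24 over the 10 genes, 0.12 over all genes tested and 0.25 over all genes called, and the signed medians were 0.043 and 0.0031.

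**Figure D1:**
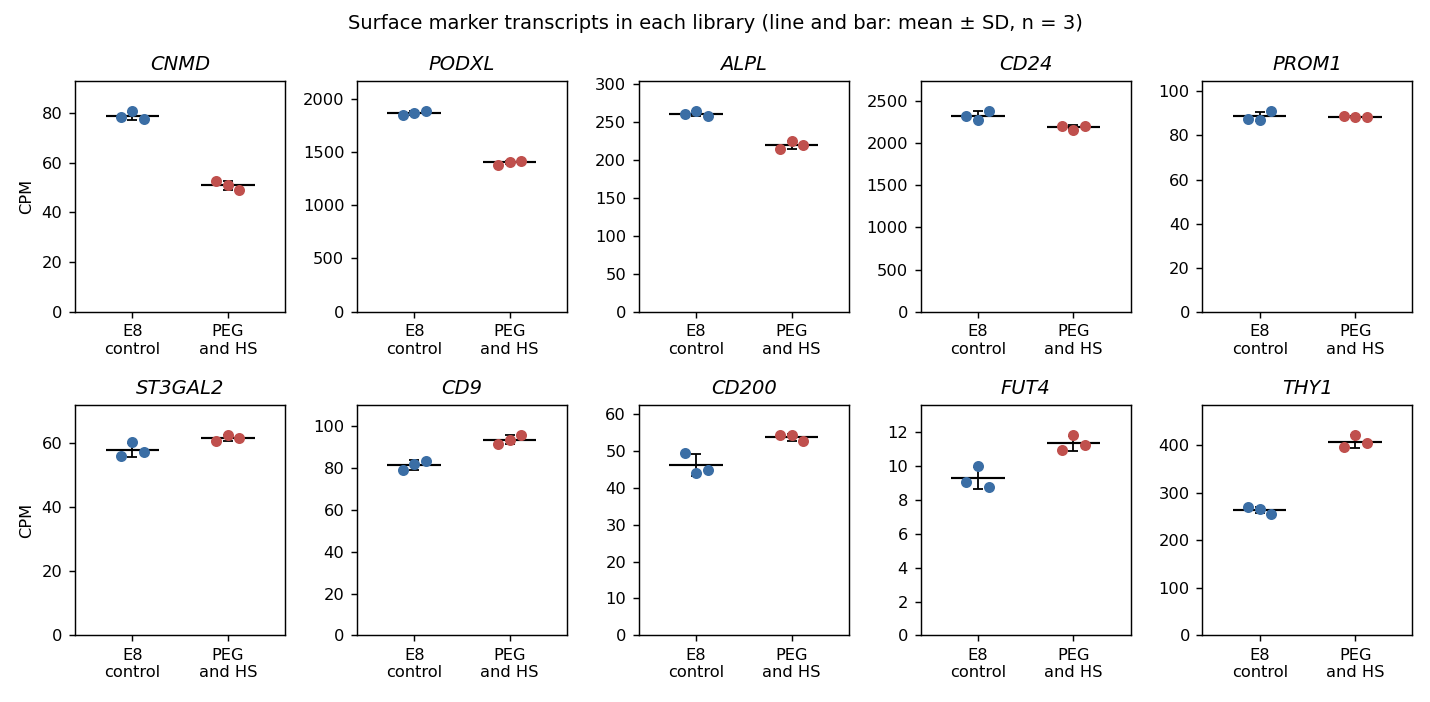
CPM (y axis from 0) of each surface marker gene in the 3 E8 control libraries (blue) and the 3 PEG and HS libraries (red), with the mean as a line and the SD as a bar, ordered from the largest fall to the largest rise. PROM1 is the only gene whose media overlap, and CNMD and THY1 differ most in fold change.

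PODXL (ENSG00000128567, chr7:131500262-131558217, minus strand, GRCh38) stood at 1383, 1411 and 1414 CPM in the PEG and HS libraries and at 1851, 1869.6 and 1885 CPM in the E8 controls. Every PEG and HS library was below every E8 control library. The means were 1403 ± 17.4 and 1868 ± 16.8 CPM (SD, n = 3), a log2 fold change of -0.41 (SE 0.023, adjusted p = 3.19e-09). In linear terms PODXL fell by 24.9%. PODXL is tied to the cell cortex through adaptors that bind its cytoplasmic tail. Of the 7 listed relatives and adaptors, 1 rose and 3 fell, which is 57.1% called where 25.3% of all genes were. The fallers were RDX (radixin, log2 fold change -0.28 ± 0.033 SE), EZR (ezrin, -0.22 ± 0.027) and NHERF1, a scaffold that links ezrin to membrane proteins (-0.13 ± 0.029). MSN (moesin) rose by 0.14 ± 0.025, so the related proteins of the ezrin family did not move one way. PODXL2, a close relative of PODXL, was at 41.9 and 39.1 CPM and was not called (adjusted p = 0.118). CD34, the other relative and a blood progenitor marker, was near 0, at 0.424 and 0.418 CPM.

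CD24 and THY1 encode small proteins on GPI anchors. CD24 (ENSG00000272398, chr6:106969831-106975627, minus strand) stood at 2203, 2156 and 2205 CPM in the PEG and HS libraries and at 2315, 2276 and 2377 CPM in the E8 controls. The ranges did not overlap, but the gap was narrow. The log2 fold change was -0.086 (SE 0.024, adjusted p = 0.0167), so CD24 fell by 5.81%. This call was lost without PEG and HS replicate 2 (-0.076, adjusted p = 0.0629) and without E8 control replicate 3 (-0.069, adjusted p = 0.0902). Of the 31-base words in the CD24 transcripts, 9.86% also occur in other genes, among them the pseudogene CD24P4 (4.88%), and how reads shared by such copies were counted is not given in the sources used here. SIGLEC10, a receptor that binds CD24, rose to 2.48 CPM from 1.59 CPM (by 0.64 on the log2 scale, SE 0.17), which was lost without PEG and HS replicate 1 or without E8 control replicate 1.

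THY1 (ENSG00000154096, chr11:119415476-119424985, minus strand) encodes Thy-1, also known as CD90, a surface protein found on pluripotent cells and on fibroblasts and neurons as well. It stood at 397, 422 and 405 CPM in the PEG and HS libraries and at 270.1, 266 and 256 CPM in the E8 controls, and no library of one medium reached the other. The rise was the largest of the 10 genes, with a log2 fold change of 0.63 (SE 0.030, adjusted p = 6.21e-10), or 54.6%. Of all genes tested, 90.3% had a smaller absolute log2 fold change. THY1 overlaps the antisense genes THY1-AS1 and USP2-AS1 in GENCODE 44, as PODXL, CD9, ST3GAL2 and FUT4 each overlap an antisense gene. The use of strand in counting is not given in the sources used here. Of 6 fibroblast markers 4 fell, where 13.1% of all genes fell. Among them were COL1A1 (60.1 against 120 CPM) and LUM (log2 fold change -1.19). The call of DCN was lost with limma-voom and without PEG and HS replicate 1 or 2 or E8 control replicate 1 or 2. COL1A2 was called lower only without E8 control replicate 3. The summed level of the 6 markers was 171 to 180.3 CPM with PEG and HS, against 234 to 260.2 CPM in E8 control.

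ALPL (ENSG00000162551, chr1:21509397-21578410, plus strand), tissue-nonspecific alkaline phosphatase, is the GPI-anchored enzyme behind the alkaline phosphatase stain of stem cell colonies. It stood at 215, 225 and 220.1 CPM in the PEG and HS libraries and at 261, 264 and 258 CPM in the E8 controls. All 3 PEG and HS libraries were below the controls. ALPL fell by 0.25 on the log2 scale (SE 0.028, adjusted p = 6.92e-06), which means it fell by 15.8%. Its germ cell relative ALPG fell further, from 1.94 to 0.573 CPM (log2 fold change -1.74, SE 0.27), and placental ALPP was at 0.382 and 0.175 CPM and was not called. Few of the enzymes and factors that build and attach GPI anchors were called. Of 28 listed genes, 1 rose and 1 fell, which is 7.14% where 25.3% of all genes were called. PIGF, which takes part in adding ethanolamine phosphate to the anchor, rose by 0.22 ± 0.063 SE, and PGAP1, which remodels the anchor's lipid, fell by 0.13 (± 0.035 SE). PIGF was no longer called without PEG and HS replicate 1 or E8 control replicate 2, nor PGAP1 without E8 control replicate 3.

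**Figure D2:**
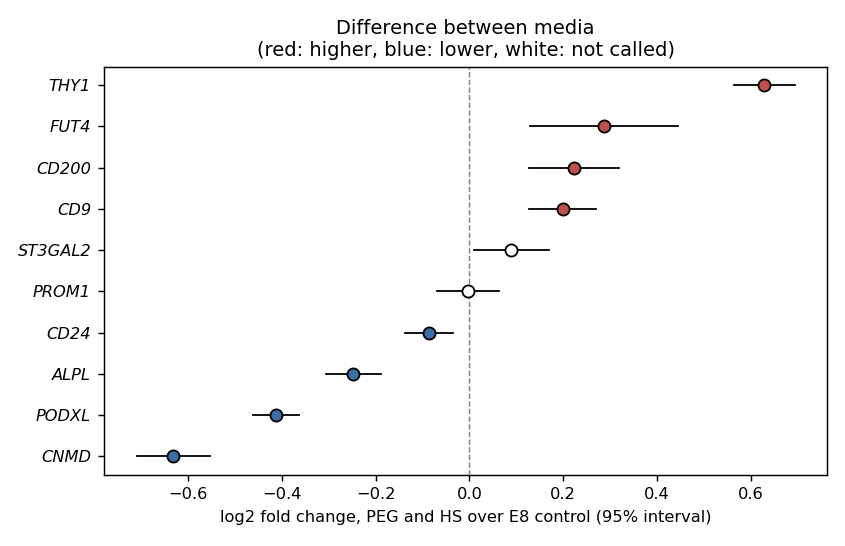
Log2 fold change of each surface marker gene between PEG and HS and E8 control, as points with 95% intervals from the edgeR fit. THY1 (0.63) and CNMD (-0.63) are the ends of the range, and the interval of PROM1 spans 0.

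ST3GAL2 and FUT4 encode enzymes that finish marker glycans. ST3GAL2 (ENSG00000157350, chr16:70375977-70439237, minus strand) is the sialyltransferase that can make SSEA-4 from its globo-series precursor. It stood at 60.6, 62.6 and 61.4 CPM in the PEG and HS libraries and at 56.0, 60.2 and 57.1 CPM in the E8 controls. The ranges did not overlap, by a margin smaller than the spread within E8 control. The log2 fold change of 0.090 (SE 0.037) did not pass the test (adjusted p = 0.0937, 95% interval 0.010 to 0.17). Without E8 control replicate 2 it passed, at 0.12 (adjusted p = 0.0483). ST3GAL1, a close relative, went from 6.63 CPM in E8 control up to 9.03 CPM (log2 fold change of 0.45, SE 0.083, adjusted p = 0.000866) and was the only one of 6 listed ST3 sialyltransferases called. That is 16.7%, where 25.3% of all genes were called.

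FUT4 (ENSG00000196371, chr11:94543921-94549895, plus strand) adds fucose to lactosamine chains and can make SSEA-1. It stood at 10.97, 11.9 and 11.2 CPM in the PEG and HS libraries and at 9.08, 10.0 and 8.76 CPM in the E8 controls. The media did not overlap. The rise was 0.29 on the log2 scale (SE 0.074, adjusted p = 0.00986), or 22.1%, and was not called without E8 control replicate 3 (0.24, adjusted p = 0.0523). FUT4 shares 9.12% of its 31-base words with PIWIL4, which overlaps it on the same strand. PIWIL4 had 4 to 15 counts per library, against 245 to 380 for FUT4. FUT9, the other enzyme known for SSEA-1, was at 20.02 and 17.9 CPM and did not pass (log2 fold change 0.16, adjusted p = 0.0723). Of 7 tested fucosyltransferases, FUT4 rose and FUT2 fell (-0.44, SE 0.099), which is 28.6% called, close to the 25.3% of all genes.

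The enzymes that lead to these epitopes can be read as lists, described here by count. Of 11 genes of globo- and lacto-series lipids, 4 rose and 1 fell (2 with the replicate block, which added B4GALT5). That is 45.5% called, where 25.3% of all genes were, with a median log2 fold change of 0.090. B3GALT5, the galactosyltransferase that makes the SSEA-3 lipid from which SSEA-4 is built, rose from 102 to 129 CPM (0.33, SE 0.038, adjusted p = 8.99e-06). B4GALT6 and UGCG, which make the first lipids of the pathway, rose by 0.31 and 0.21. Summed over the list, PEG and HS libraries had 471 to 475 CPM and E8 control libraries 438 to 450.4. Ganglioside genes were called in 3 of 9, or 33.3%, close to the 25.3% of all genes. ST8SIA1 (GD3 synthase) was higher by 0.86, a call lost without PEG and HS replicate 1, and ST6GALNAC6 was lower by 0.24. The 2 falls of that list became 1 with DESeq2, with library size alone and without PEG and HS replicate 1 or 2 or E8 control replicate 1 or 3. Of 25 tested genes of O-glycans and lactosamine chains, 3 rose (5 without PEG and HS replicate 2) and 6 fell, 36% in all. GCNT1, which starts the core 2 branch of O-glycans, showed the largest fall, from 39.6, 40.1 and 39.9 CPM in E8 control to 12.01, 12.1 and 12.03 CPM with PEG and HS (-1.73 on the log2 scale, SE 0.048, adjusted p = 1.49e-12). B3GNT7, which extends lactosamine chains of keratan sulfate, rose from 98.9 to 148 CPM (0.58, SE 0.034). These enzymes act on many proteins and lipids, and the RNA libraries hold no measure of the glycans themselves.

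**Figure D3:**
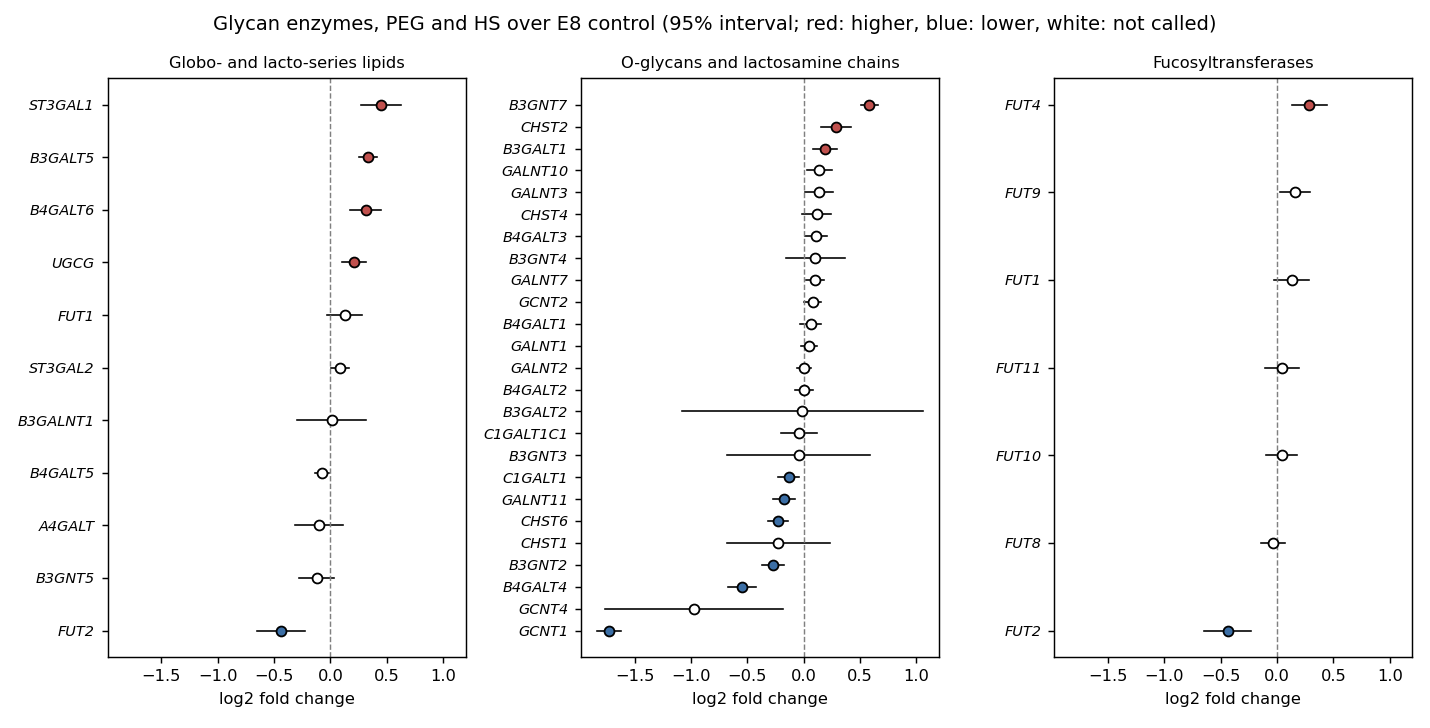
Log2 fold changes between PEG and HS and E8 control, with 95% intervals, for listed genes of globo- and lacto-series lipids, of O-glycans and lactosamine chains and of fucosyltransferases. Filled points were called: B3GALT5, ST3GAL1 and B3GNT7 lie to the right of 0, and GCNT1 lies furthest to the left at -1.73.

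CD9 (ENSG00000010278, chr12:6199715-6238271, plus strand) encodes a tetraspanin, a membrane protein that gathers partners into microdomains. It stood at 91.6, 93.4 and 95.9 CPM in the PEG and HS libraries and at 79.0, 82.1 and 83.3 CPM in the E8 controls. All PEG and HS libraries were higher, with a log2 fold change of 0.20 (SE 0.033, adjusted p = 0.000372), or 14.8%. Other tetraspanins and partners moved both ways: of 14, 2 rose (4 when scaled by library size alone) and 5 fell. That is 50% called, where 25.3% of all genes were. TSPAN5 rose by 0.22 ± 0.043 SE and IGSF8, a partner of CD9, by 0.18 ± 0.037. CD82 fell by 0.63 (± 0.13 SE) and CD151 by 0.55 (± 0.046 SE). CD81, the closest relative of CD9, was at 163 and 169.6 CPM and was not called (log2 fold change -0.054, adjusted p = 0.293).

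PROM1 (ENSG00000007062, chr4:15963076-16084378, minus strand), which encodes prominin-1 or CD133, a protein of membrane protrusions, stood at 88.7, 88.2 and 88.4 CPM in the PEG and HS libraries and at 87.6, 87.1 and 91.0 CPM in the E8 controls. The PEG and HS libraries lay within the E8 control range. The log2 fold change was -0.0038 (SE 0.031, adjusted p = 0.949), with a 95% interval of -0.070 to 0.063. Its relative PROM2 was at 8.61 and 8.38 CPM and was not called. The gene FGFBP2 overlaps PROM1 on the same strand and held 1 count in all.

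CD200 (ENSG00000091972, chr3:112332347-112362812, plus strand) encodes an immune-regulatory ligand of the immunoglobulin family. It stood at 54.3, 54.1 and 52.5 CPM in the PEG and HS libraries and at 49.5, 44.1 and 44.7 CPM in the E8 controls. One E8 control library lay above the other two, but all were below PEG and HS, and the log2 fold change was 0.22 (SE 0.045, adjusted p = 0.00174), or 16.7%. Of its 31-base words, 10.6% also occur in ENSG00000239482, a gene annotated over it on the same strand. Its receptor CD200R1 was near 0, at 0.022 CPM in both media, and was not tested.

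CNMD (ENSG00000136110, chr13:52703264-52739820, minus strand), chondromodulin, is known as an inhibitor of vessel growth in cartilage and its transcript is enriched in pluripotent cells. It stood at 52.6, 51.2 and 49.1 CPM in the PEG and HS libraries and at 78.5, 80.8 and 77.7 CPM in the E8 controls. The media were well apart, and the fall was the largest of the 10 genes. It was -0.63 on the log2 scale (SE 0.036, adjusted p = 4.49e-09), so that CNMD fell by 35.5%. The transcripts of CNMD share no 31-base word with another gene.

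Sequences before RefSeq start sites (GRCh38.p14) are shown for 3 genes as examples, CNMD and ALPL, which fell, and CD200, which rose. They are 5′ to 3′ on the coding strand, in lower case, with capitals for GGGCGG (the SP1 box) and TATAAA (the TATA box) or their reverse complements. The CD200 window stops where an annotated untranslated region begins. CNMD lies at chr13:52739821-52740070 on the minus strand, ALPL (second of 3 starts) at chr1:21509173-21509422 and CD200 at chr3:112332906-112333067 on the plus strand. By the gene spans given above, the CD200 stretch lies within the gene and the ALPL stretch runs past the gene start.
CNMD: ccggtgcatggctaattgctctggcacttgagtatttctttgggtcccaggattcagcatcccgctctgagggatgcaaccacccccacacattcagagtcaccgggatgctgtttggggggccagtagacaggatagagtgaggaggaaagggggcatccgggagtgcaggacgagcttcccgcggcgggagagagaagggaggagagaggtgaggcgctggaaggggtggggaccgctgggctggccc
ALPL: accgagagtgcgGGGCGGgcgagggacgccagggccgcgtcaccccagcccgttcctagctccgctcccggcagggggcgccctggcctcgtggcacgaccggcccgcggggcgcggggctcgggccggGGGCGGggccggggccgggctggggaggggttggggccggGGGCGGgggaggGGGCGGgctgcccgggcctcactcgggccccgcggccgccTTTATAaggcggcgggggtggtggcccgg
CD200: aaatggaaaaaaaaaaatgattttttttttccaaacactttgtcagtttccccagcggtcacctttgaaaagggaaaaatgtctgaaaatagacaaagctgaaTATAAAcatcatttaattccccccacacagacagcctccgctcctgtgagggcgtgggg
The ALPL window shown, at start 2 of 3, holds 4 SP1 boxes and a TATA box, read on the reverse strand. This TATA box begins 29 bases before the start, and 83.6% of the bases in the window are G or C. The windows of ALPL starts 1 and 3 hold neither motif, at 60.4% and 49.6% G or C. CNMD holds neither motif at 62% G or C. CD200 has a TATA box that begins 147 bases before the start. Of the genes with RefSeq starts that are not shown, CD9, CD24 and PROM1 have an SP1 box before some of their starts. FUT4 has none, and the TATA box was before no start of these genes. Of 35114 windows of 250 bases, 42.6% hold the SP1 box and 10.7% the TATA box, on either strand. The letters CCGGAAGT (an ETS site) were also searched, are held by 3.42% of windows, and were in none of the 3. A match describes only these letters.

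Between genes, levels were compared per exonic length as TPM (counts per exonic length, scaled to the same total in each library). CD24 was highest, at 2795 ± 44.3 TPM in PEG and HS and 2907 ± 81.8 TPM in E8 control, and PODXL followed at 805 and 1050.2 TPM. ALPL came next at 292 and 339 TPM. In PEG and HS, THY1 (234 TPM) stood above CNMD (123 TPM), and in E8 control CNMD (187 TPM) stood above THY1 (148 TPM). After them came CD200 (70.9 and 59.7 TPM), CD9 (63.5 and 54.2 TPM), PROM1 (46.9 and 46.0 TPM), ST3GAL2 (25.0 and 23.0 TPM) and FUT4 (7.51 and 6.02 TPM). No neighbours in this order had overlapping libraries in either medium. The order does depend on the length used: with the longest transcript, THY1 was above ALPL in PEG and HS (264 against 252 TPM) and above CNMD in E8 control (167 against 155 TPM), and CD9 was above CD200 in both. Summed over the 10 genes, the level was 4462 ± 40.2 TPM in PEG and HS and 4821 ± 88.6 TPM in E8 control, of which CD24 made up 62.6% and 60.3%.

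**Figure D4:**
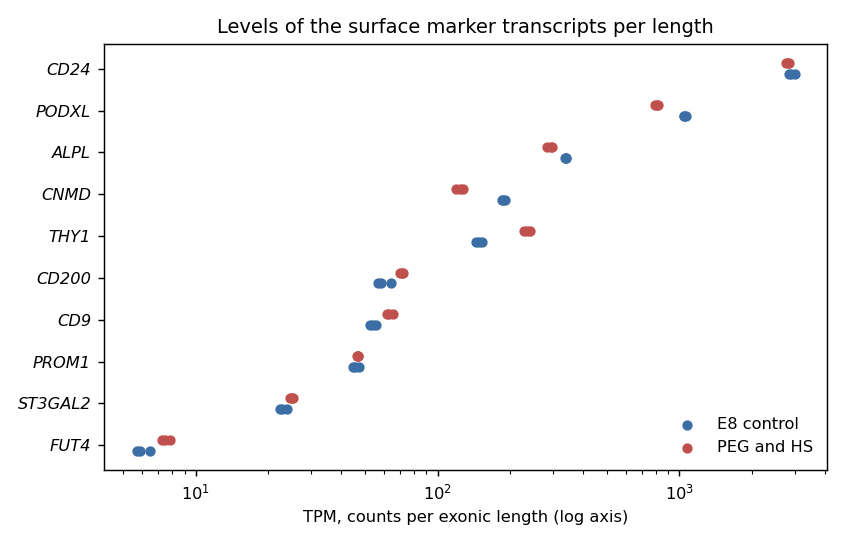
Level of each surface marker gene per exonic length (TPM, log axis) in each library, with E8 control in blue and PEG and HS in red. CD24 and PODXL are highest in both media. By exonic length THY1 and CNMD change places between the media, but by the longest transcript THY1 is above CNMD in both.

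Other surface proteins of pluripotent cells, listed apart from these 10, changed in 13 of 18 cases, with 3 higher and 10 lower (median log2 fold change -0.16). That is 72.2% called, where 25.3% of all genes were. L1CAM, a neural adhesion molecule, rose from 44.6 to 66.7 CPM (0.58, SE 0.036), with TNFRSF8 (CD30) and F11R also higher, at 0.29 and 0.092. ADGRG2, an adhesion receptor, fell from 37.1 to 21.1 CPM (-0.81, SE 0.054). Also lower were ALCAM (-0.57), NECTIN2 (-0.41), CDH1 (-0.39), FZD7 (-0.39), PVR (-0.36), ITGA6 (-0.24), CLDN6 (-0.18), CD59 (-0.18) and BSG (-0.079). EPCAM, a widely used epithelial and stem cell marker, was at 248 and 242 CPM and was not called (adjusted p = 0.422). The call of F11R was lost without PEG and HS replicate 3, E8 control replicate 2 or E8 control replicate 3. That of BSG, among the 10 lower, was lost in 6 of 13 alternatives. These were library size alone and leaving out any library but PEG and HS replicate 3.

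**Figure D5:**
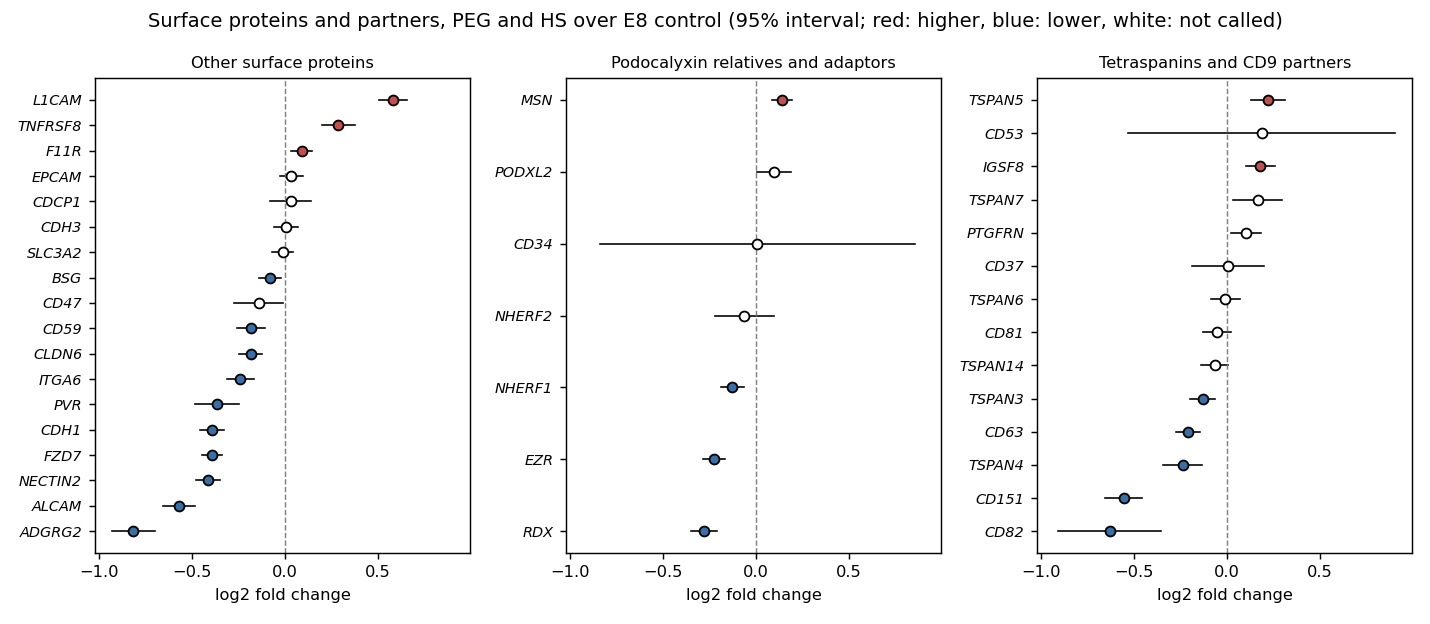
Log2 fold changes between PEG and HS and E8 control, with 95% intervals, for other surface proteins, podocalyxin relatives and adaptors, and tetraspanins with partners of CD9. L1CAM (0.58) lies furthest right among the called genes and ADGRG2 (-0.81) furthest left.

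Markers of other cell types moved with the media and stand beside the changes above, and their part in those changes was not tested. The counts below stand beside 12.2% of all genes tested that rose and 13.1% that fell. Of 10 neural markers 6 fell, such as SOX1 (from 4.29 to 1.32 CPM). The call of HES5 was lost with the replicate block and without PEG and HS replicate 1 or 2 or E8 control replicate 1 or 2. The summed level of the neural markers was 797 to 843 CPM with PEG and HS and 918 to 955 CPM in E8 control. Of 6 tested trophectoderm and amnion markers 5 fell, led by TFAP2A (from 6.00 to 0.604 CPM), with sums of 16.0 to 17.4 and 32.3 to 34.2 CPM. Of 7 mesoderm and streak markers KDR rose by 0.19 and 2 fell, HAND1 and TBX6 (-0.48, lost without E8 control replicate 3), with sums of 63.6 to 66.9 and 57.7 to 61.7 CPM. None of the 4 tested endoderm markers was called by edgeR or limma-voom, nor any of the 3 to which DESeq2 gave an adjusted p (2 of 6 were below the count filter). FOXA2 had an unadjusted p under 0.05 in edgeR, 1 of the 4, and was called lower without E8 control replicate 3 and with a filter of at least 1 CPM in 3 libraries. The endoderm list had sums of 3.19 to 3.97 and 4.10 to 5.12 CPM. Of 5 tested blood and endothelium markers 1 fell, TEK (from 4.97 to 2.69 CPM), with sums of 4.35 to 5.19 and 6.67 to 7.39 CPM. Among 10 pluripotency genes, 6 rose, with NANOG from 126 to 185 CPM, and 2 fell, with SOX2 from 412 to 273 CPM. HAND1, at 0.164 CPM or less on average, is in both the mesoderm and the trophectoderm list. Its call was lost without PEG and HS replicate 2 or 3 or E8 control replicate 1, DESeq2 gave it no adjusted p, and it was below the count filter without E8 control replicate 2. The 2 mesoderm falls became 1 when any library but PEG and HS replicate 1 was left out.

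The tested genes with the most similar profile over the 6 libraries were found among 10069 genes of at least 10 CPM, by the root mean square difference of mean-centred log2(CPM + 1). They describe likeness over 6 libraries that include both media. Nearest to PODXL were LAMB1 (0.0099), RRAGD and DPYSL3, to THY1 ETV4 (0.011), ZDHHC22 and SMAD7, and to CNMD LFNG (0.019), TRPM3 and HEG1. For ALPL they were FBXO17 (0.017), PTPN14 and PCCA, for CD9 CHD3 (0.011), CLN8 and HK1, and for CD200 ENTPD1 (0.017), STAT6 and LCK. CD24 had KCMF1 (0.0085), EIF2AK2 and OSBPL1A, PROM1 had PLEKHA5 (0.0075), ECHS1 and NCOA3, ST3GAL2 had IMP3 (0.010), SDHA and IFT81, and FUT4 had EEPD1 (0.021), SNX10 and GRAMD1A.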

How the data were processed

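Bulk polyadenylated RNA from 6 samples was prepared with a stranded kit. Per the labels and methods, the authors trimmed reads with Trim Galore 0.6.7, mapped them to GRCh38 with STAR 2.6.1 in an nf-core pipeline and deposited raw counts per gene, 1 file per sample. The counter, its strand setting, its treatment of multi-mapping reads and the annotation release are not given in the sources used here. Of 19977 identifiers, 19916 matched GENCODE 44.

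Libraries were grouped by their labelled treatment. Genes with at least 10 counts in total were tested with edgeR 4.0.16 in R 4.3.3 (TMM, glmQLFit, glmQLFTest, Benjamini-Hochberg, called under 0.05). Standard errors were derived from the F statistic (size of the log2 fold change divided by the root of F), and intervals are 95%. The common biological coefficient of variation was 3.12%, and counting noise adds more to the spread as counts fall. Between replicates of a medium, chi-square per degree of freedom was 2.61 to 3.60, more than counting noise. Scripts were tested on simulated counts. Alternatives were DESeq2 1.42.0, limma-voom (limma 3.58.1), other scalings and filters, the replicate block and each library left out. Promoter windows are the 250 bases before RefSeq starts (7 of 10 genes matched). Named genes were each of the 10, the largest called rise and fall of each list with at least 1 CPM, fixed relatives and nearest profiles. IGSF8, CD151, EZR, NHERF1, B4GALT6, UGCG, TNFRSF8, F11R, BSG, CD200R1, COL1A1, COL1A2, DCN, HES5, HAND1, FOXA2, B4GALT5, PTPRC, SOX17 and CDX2 fall outside that rule and were chosen after their values were seen. The same holds for ALCAM, NECTIN2, CDH1, FZD7, PVR, ITGA6, CLDN6 and CD59. The genes and lists were chosen with earlier results of these data known.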

Additional observations from a re-analysis of the deposited data

How the results depend on the processing

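Of 130 recomputed log2 fold changes (10 genes, 13 alternatives each), 124 kept direction and call, and 2 of the uncalled PROM1 changed sign without a call, with library size alone and without E8 control replicate 3. In the 4 others, each with 1 library left out, the call changed. Over all 13 alternatives the log2 fold change of CD24 ran from -0.103 to -0.069. That of ST3GAL2 ran from 0.065 to 0.118 and that of FUT4 from 0.242 to 0.346. CD24 lost its call without PEG and HS replicate 2 and without E8 control replicate 3. FUT4 lost its call without E8 control replicate 3, and ST3GAL2 gained one without E8 control replicate 2. The cause was not tested.

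Samples with the same number did not deviate together (r = 0.013, -0.0043 and 0.057 over 10069 genes), and 0 of 3 PEG and HS libraries correlated best with their own number. The replicate block called 2187 genes higher and 2257 lower, against 2016 and 2157 without it, and again 4 surface marker genes in each direction. Of 371 recomputed list counts, 22 moved by over 1.5 times, 18 of them with 1 library left out, in 10 lists. Another 3 counts were left out because DESeq2 gave a called gene no adjusted p. Depth limits markers under 1 CPM most.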
